A study of Gallus gallus with 6 samples.

Results

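The smooth muscle contractile genes are 10 genes whose products build, regulate or brace the contractile apparatus of smooth muscle cells: ACTA2, ACTG2, MYH11, CNN1, TAGLN, DES, MYLK, LMOD1, CALD1 and TPM1. Their probe sets were taken as every probe set that the array platform's annotation pairs with one of these symbols and with no other gene, whatever its signal. The rule found 22 of the 38439 probe sets that are not array controls, for 8 of the 10 genes and of 13009 genes with a probe set in all. TPM1 has 8 of them, CALD1 and MYLK have 4 each, DES has 2, and ACTA2, ACTG2, MYH11 and TAGLN have 1 each. CNN1 (calponin, a protein that binds thin filaments) and LMOD1 (leiomodin, which starts new actin filaments) have no probe set under this rule and were not analysed here.

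The study profiled RNA from the ovaries of 6 domestic hens (Gallus gallus), 1 Affymetrix array per hen. The cancer group is 3 hens with an ovarian tumour, named 4, LB14 and LB11 in the titles, and the Normal group is 3 hens, named 36, LB3 and LB22, without visible or microscopic signs of ovarian cancer. The design text describes the hens as alike in age and laying status, and the tumours as either limited to the ovary or also seeded into the abdomen, without giving the stage of each hen. Whole ovaries were sampled, so a tumour sample holds tumour cells together with whatever stroma, muscle, vessels and follicles its ovary retained, and each hen is a single biological sample.

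In smooth muscle, calcium entering the cell activates myosin light chain kinase, the kinase phosphorylates the light chain of smooth muscle myosin, and the myosin then pulls on filaments of smooth muscle actin. Tropomyosin, caldesmon, calponin and transgelin lie along those filaments, and desmin intermediate filaments tie the apparatus to the cell's dense bodies. The avian ovary has smooth muscle in its stroma, in the walls and stalks of its follicles and in its blood vessels. Several of the same proteins also occur in myofibroblasts and pericytes, and caldesmon and tropomyosin have forms that non-muscle cells make.

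None of the contractile genes differed between cancer and Normal ovaries past the threshold used, an adjusted p under 0.05 in limma with Benjamini-Hochberg adjustment over all probe sets. What the data show instead is a large spread between the tumours. ACTG2, DES and MYLK were below every Normal ovary in the tumour of hen 4. In the tumour of hen LB14, ACTG2 and DES were also below every Normal ovary, ACTG2 only just. In the tumour of hen LB11, ACTG2 and DES were above every Normal ovary, and so was MYLK in its brightest probe set only. Signals below are the authors' linear intensities, and differences are on the scale log2(signal + 16), cancer minus Normal. A gene is read from its brightest probe set, and signals are compared between hens, never between genes. In whole tissue, fewer muscle cells and less RNA per cell cannot be told apart.

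**Figure D1:**
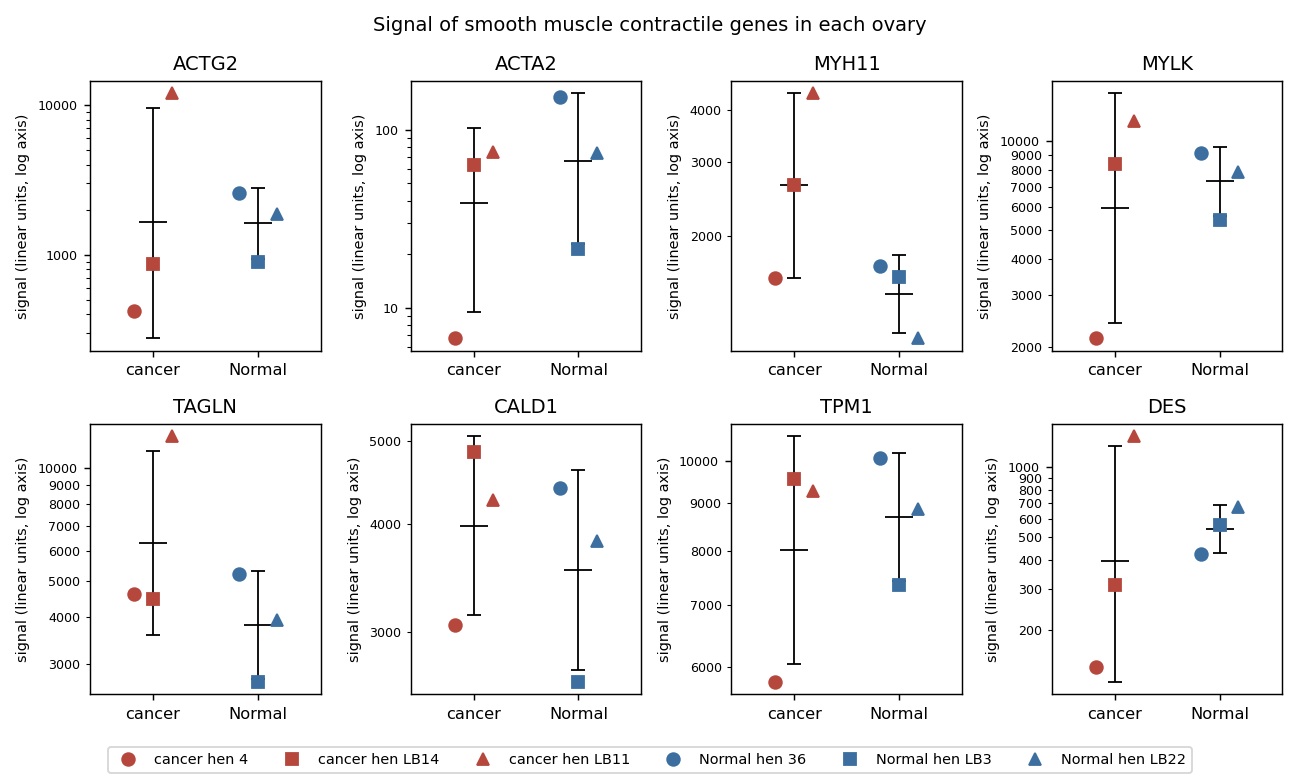
Signal of the brightest probe set of each contractile gene in each ovary, on a log axis with a range of its own for each gene. The horizontal and vertical bars give the mean ± SD over 3 hens, computed on log2(signal + 16) and turned back to the linear scale. Hen LB11 is the highest of the 6 ovaries for ACTG2, MYH11, MYLK, TAGLN and DES, and in hen 4 and Normal hen LB3 the ACTA2 signal lies below the background limit of its array.

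ACTG2, the gamma actin of visceral smooth muscle, had signals of 424, 869 and 11989 in the tumours of hens 4, LB14 and LB11, against 2574, 890 and 1883 in Normal hens 36, LB3 and LB22. The LB11 tumour was above every Normal ovary, and the tumours of hens 4 and LB14 were both below every Normal ovary, LB14 only just. The LB11 signal was 4.66 times the highest Normal signal, and the lowest Normal signal was 2.10 times that of hen 4. Between the tumours of LB11 and hen 4 the ratio was 28.3. The group means were level: the difference was 0.02 (SE 1.02, 95% interval -2.29 to 2.34, limma adjusted p = 0.998). That mean rests on LB11, since the difference was -1.40 without it (limma adjusted p = 0.409), and it was -0.41 without Normal hen LB3. The interval is the widest of the 22 probe sets.

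ACTA2, the alpha actin of vascular smooth muscle and of myofibroblasts, was read by a dim probe set with 6.72, 63.5 and 75.2 in the tumours of hens 4, LB14 and LB11, against 153, 21.4 and 73.6 in Normal hens 36, LB3 and LB22. A background limit was set on each array from control probe sets whose target RNA was assumed to be left out of the sample. It lay between 25.5 and 44.6. The signals of tumour 4 and of Normal hen LB3 were below their arrays' limits, so these have no order and no fold against them is given. The groups overlapped, with a difference of -0.59 (SE 0.67, 95% interval -2.10 to 0.91, limma adjusted p = 0.885), and of 0.04 without hen 4. The actin genes are close copies of each other, and how far this probe set and that of ACTG2 also read other actin transcripts was not tested.

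MYH11, the heavy chain of smooth muscle myosin and the motor of the apparatus, had 1582, 2648 and 4395 in the tumours of hens 4, LB14 and LB11, against 1692, 1590 and 1132 in Normal hens 36, LB3 and LB22. The tumours of LB14 and LB11 were above all 3 Normal ovaries, and the tumour of hen 4 lay within the Normal range. The LB11 signal was 2.60 times the highest Normal signal. The difference of 0.86 (SE 0.34, 95% interval 0.09 to 1.63) had the smallest p of the 22 probe sets, an unadjusted limma p of 0.0323, and it did not pass the threshold over all probe sets (limma adjusted p = 0.547). Its direction held without each hen in turn, between 0.49 and 1.23.

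MYLK, the kinase that phosphorylates the myosin light chain and so starts contraction, had 2142, 8346 and 11692 in the tumours of hens 4, LB14 and LB11, against 9157, 5413 and 7898 in Normal hens 36, LB3 and LB22. Hen 4 was below every Normal ovary and LB11 above every one. The lowest Normal signal was 2.53 times that of hen 4, and LB11 had 5.46 times the signal of hen 4. The difference was -0.30 (SE 0.54, 95% interval -1.51 to 0.91, limma adjusted p = 0.937), and 0.43 without hen 4.

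The other probe sets of MYLK allow the pattern to be read again in the same RNA. In the 3 brightest, the log2 value of tumour 4 minus the Normal mean ran from -1.95 to -1.57, and that of tumour LB11 from 0.41 to 0.68. Hen 4 was the lowest of the 6 ovaries in all 3. LB11 was above every Normal ovary in the brightest only. In the others it had 5265 and 229, just below Normal hen 36 with 5375 and 242. Their cancer minus Normal differences ran from -0.44 to -0.30, with limma adjusted p between 0.912 and 0.937. The fourth probe set had a mean signal of 40.3 and was above the background limit in 1 of 3 tumours and 2 of 3 Normal ovaries, so it gives no usable reading of MYLK.

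TAGLN, or transgelin, an actin-bundling protein used as an early marker of smooth muscle, had 4618, 4480 and 12123 in the tumours of hens 4, LB14 and LB11, against 5224, 2688 and 3928 in Normal hens 36, LB3 and LB22. Only LB11 was outside the Normal range, at 2.32 times the highest Normal signal. The tumours of hens 4 and LB14 lay between the Normal values. The difference was 0.73 (SE 0.39, 95% interval -0.16 to 1.61, limma adjusted p = 0.690), and 0.26 without LB11. Unlike ACTG2, DES and MYLK, TAGLN was not low in hen 4, whose signal was 0.28 above the Normal mean on the log2 scale.

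CALD1, or caldesmon, which holds back the myosin motor on the thin filament, had 3054, 4850 and 4274 in the tumours of hens 4, LB14 and LB11, against 4414, 2623 and 3828 in Normal hens 36, LB3 and LB22. The groups overlapped and LB11 was inside the Normal range. The difference was 0.17 (SE 0.24, 95% interval -0.38 to 0.72, limma adjusted p = 0.914), and -0.04 without Normal hen LB3. Over its 4 probe sets the differences ran from -0.16 to 0.17, and LB11 had between 1.05 and 2.10 times the signal of hen 4. CALD1 was the gene of this group whose SD was smaller among tumours (0.34) than among Normal ovaries (0.39) in the brightest probe set, although in the other 3 probe sets the tumours were the more spread.

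TPM1, the alpha tropomyosin that lies along actin filaments in muscle and, in other forms, in most cells, had 5789, 9570 and 9286 in the tumours of hens 4, LB14 and LB11, against 10082, 7352 and 8878 in Normal hens 36, LB3 and LB22. Hen 4 was the lowest of the 6 ovaries and the other tumours were inside the Normal range. The difference was -0.12 (SE 0.23, 95% interval -0.63 to 0.40, limma adjusted p = 0.941), and 0.12 without hen 4. Over the 8 probe sets, 7 had a negative difference and 1 a positive one, from -0.36 to 0.08, with limma adjusted p from 0.840 to 0.970. The ratio of LB11 to hen 4 ran from 0.896 to 1.65 over them, so no TPM1 probe set shows the wide gap between these tumours that ACTG2, DES and MYLK show. The probe sets share transcripts, and some are marked by the platform as reading other sequences too, so they are not independent readings.

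DES, or desmin, the intermediate filament protein of muscle cells, had 139, 312 and 1356 in the tumours of hens 4, LB14 and LB11, against 422, 566 and 672 in Normal hens 36, LB3 and LB22. The Normal ovaries were close to each other, with an SD of 0.33 on the log2 scale, and the tumours stood on both sides of them, with an SD of 1.60. The tumours of hens 4 and LB14 were below every Normal ovary, and the lowest Normal signal was 3.04 times that of hen 4. LB11 had 2.02 times the highest Normal signal and 9.78 times the signal of hen 4. The difference in means was -0.44 (SE 0.65, 95% interval -1.92 to 1.04, limma adjusted p = 0.916), and 0.26 without hen 4. The second DES probe set, with a mean signal of 14.9, was at or below the background limit on all 6 arrays.

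**Figure D2:**
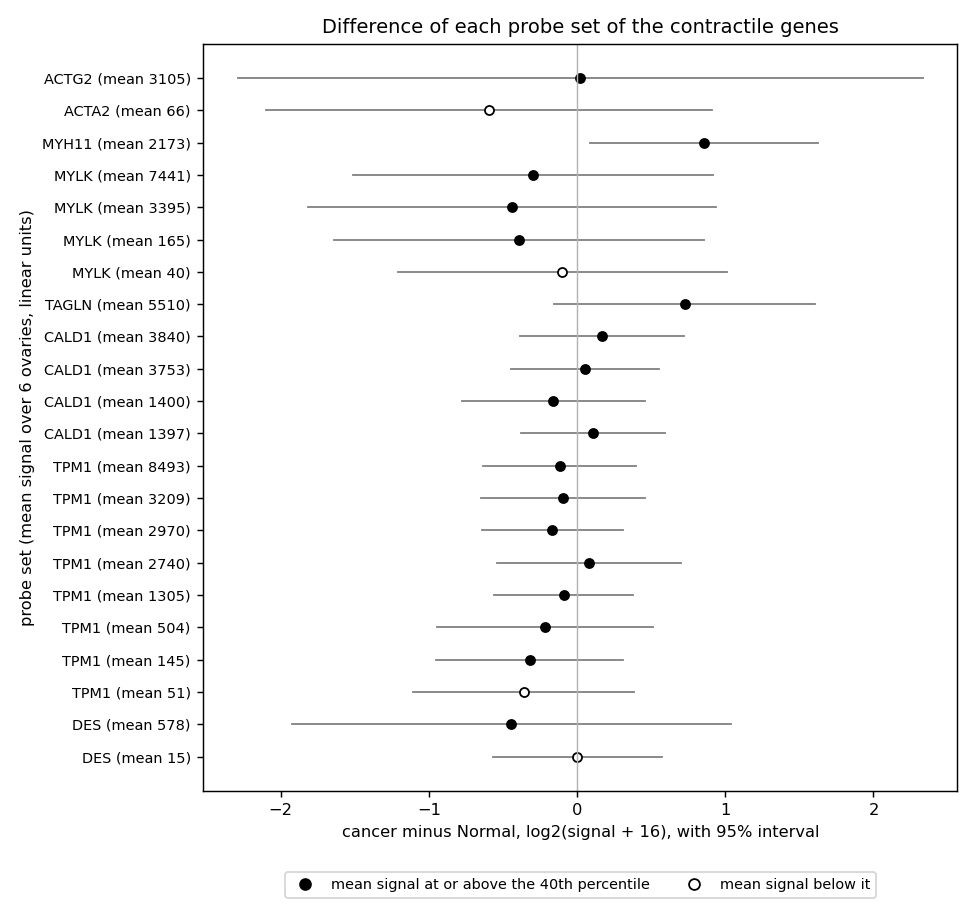
Cancer minus Normal difference of each of the 22 probe sets on the log2(signal + 16) scale, with its 95% interval from limma, 3 hens a group. Open points are the 4 probe sets with a mean signal below the 40th percentile of all probe sets. The intervals are widest for ACTG2, ACTA2 and DES, and that of MYH11 alone does not reach 0 before adjustment.

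Counted together, 0 of the 22 probe sets passed the threshold as higher in cancer, where 0.0989% of all probe sets did, and 0 passed as lower, where 0.0156% of all did. At an unadjusted limma p under 0.05, 1 was higher (MYH11) and 0 were lower. By gene, the background was 0.208% called higher and 0.0307% called lower. The 3 tumours lay wholly above the 3 Normal ovaries in 0 of the 22 probe sets, against 6.88% of all probe sets, and wholly below them in 0, against 6.4% of all. A filter on low signal would have kept 18 of the 22 probe sets and 7 of the 8 genes, with ACTA2 just below it. The differences were positive for 4 genes and negative for 4, with a median of -0.05, beside -0.00 over all 13009 genes. That median has no stable sign: it was 0.40 without hen 4, -0.51 without LB11, -0.11 without LB14, 0.16 without Normal hen 36, -0.32 without Normal hen LB3 and 0.01 without Normal hen LB22. An exact permutation test of 3 hens against 3 cannot give a two-sided p below 0.1, so none was run for single genes.

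The spread between tumours is given here as a description, without a test. The median SD over the 8 genes was 0.96 among tumours and 0.39 among Normal ovaries on the log2 scale, beside 0.34 and 0.22 over all genes. The tumour value rests on the outer tumours: it was 0.43 without hen 4, 0.62 without LB11 and 1.23 without LB14. It was 0.82 over the 7 genes left by the filter on low signal, without ACTA2, whose SD in either group includes a signal below background. The SD was larger among tumours for 7 of the 8 genes, ACTA2 among them, as it was for 68.8% of all genes. By probe set, the SD was larger among tumours for 14 of the 22. TPM1 is counted by its brightest probe set, but most of its other probe sets were more spread among Normal ovaries. ACTG2 had an SD of 2.51 among tumours, at percentile 99.9 of all genes, followed by DES at percentile 99.2 and MYLK at 98.1. TAGLN was at percentile 90.8 and MYH11 at 87.6, while TPM1 and CALD1 were near the middle, at 59.2 and 49.8. The percentiles of the SD among Normal ovaries were 95.5 for ACTG2, 69.9 for DES and 77.1 for MYLK, so ACTG2 also varied widely between hens without cancer.

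**Figure D3:**
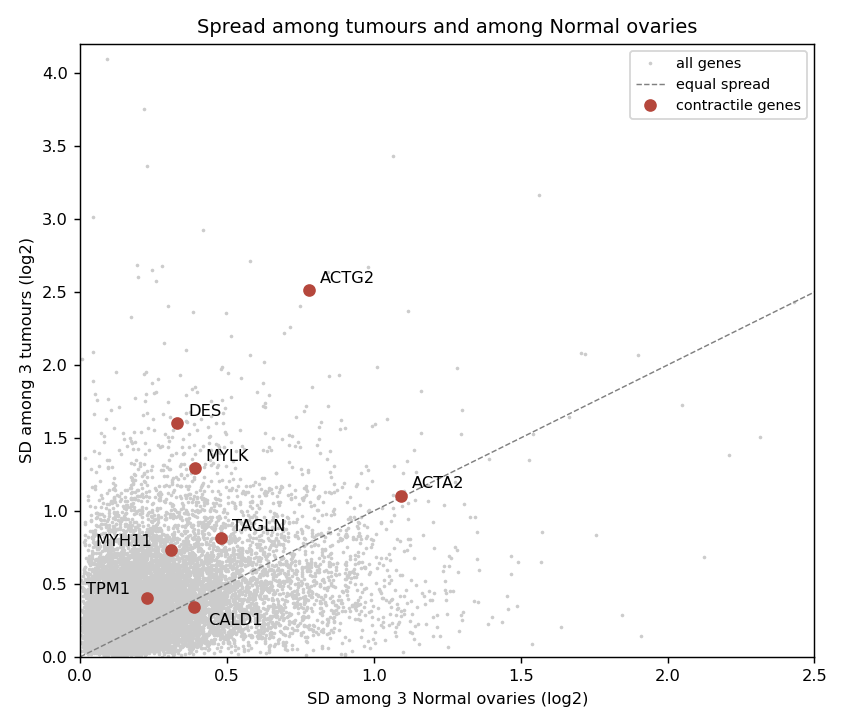
SD over 3 tumours (vertical) against SD over 3 Normal ovaries (horizontal) of log2(signal + 16), for each gene's brightest probe set. Red points are the contractile genes, grey points are all genes (1 lies outside the axes), and on the dashed line both SDs are equal. ACTG2, DES and MYLK lie far above the line and CALD1 just under it, and the place of ACTA2 rests on 1 signal below background in each group.

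Read hen by hen, the median over the genes ranked the tumours in the order LB11, LB14 and hen 4. Not each gene kept this order. TAGLN was lower in LB14 than in hen 4, and CALD1 and TPM1 were higher in LB14 than in LB11. The median of the 8 genes lay 0.98 above the Normal mean in LB11, 0.16 above it in LB14, and at -1.18 in hen 4. It counts ACTA2, at -1.86 in hen 4 from a signal below background. Without ACTA2 the middle gene lay at 1.29 in LB11 (DES), 0.19 in LB14 (MYLK) and -0.59 in hen 4 (TPM1). Over all genes the medians were 0.04, -0.01 and -0.04. LB11 was the highest of the 6 ovaries for 5 of the 8 genes, where it was so for 19.7% of all genes, and hen 4 the lowest for 5 of the 8, where it was so for 22.0%. One of these, ACTA2, was below background in hen 4 and in Normal hen LB3 and has no rank there. Among the 22 probe sets, Normal hen 36 was the highest in 10, of which 6 belong to TPM1. LB11 was the highest in 6 and hen 4 the lowest in 11. The gap between these tumours was not the same for all the genes: LB11 over hen 4 was 28.3 for ACTG2, 9.78 for DES and 5.46 for MYLK, but 2.78 for MYH11, 2.63 for TAGLN, 1.60 for TPM1 and 1.40 for CALD1.

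The Normal ovaries also had an order. Hen 36 was the highest Normal ovary for 7 of the 8 genes, where it was so for 29.6% of all genes, and hen LB3 the lowest for 6 of the 8, where it was so for 34.2%. DES was the exception for hen 36, which had its lowest Normal signal. The list means lay at 0.36 in hen 36, -0.43 in LB3 and 0.07 in LB22 on the log2 scale relative to their common mean. They include ACTA2, at -1.15 in LB3 from a signal below background.

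The partners of contraction did not show as wide a gap. Of 30 listed genes for light chains, the myosin phosphatase, other tropomyosins and thin filament proteins, 25 had a probe set, 0 were called in either direction, and the median difference was 0.02. Their mean relative to the Normal mean was -0.15 in hen 4, 0.26 in LB14 and 0.14 in LB11. The list also holds genes that are not particular to muscle, such as ACTB, ACTG1, RHOA and RHOB. How far such genes narrow the gap of the list mean was not tested. MYL9, the light chain that MYLK phosphorylates, had 2544, 2538 and 5659 in the tumours of hens 4, LB14 and LB11, against 4258, 2324 and 2932 in Normal hens 36, LB3 and LB22. TPM2, the beta tropomyosin of muscle, had 1993, 3119 and 5436 in those tumours, against 5431, 3318 and 4318 in the Normal ovaries. For both genes LB11 was the highest tumour, and for TPM2 hens 4 and LB14 were below every Normal ovary while LB11 and Normal hen 36 were level. MYL9 and TPM2 were chosen after their values were seen, and their limma adjusted p were 0.967 and 0.836.

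The largest differences of the partner list belonged to LMOD3 (0.90, limma adjusted p = 0.673), a leiomodin of skeletal muscle, to SMTNL2 (0.70, limma adjusted p = 0.572), a smoothelin-like protein, and to SVIL (0.52, limma adjusted p = 0.591), supervillin, which links actin and myosin to membranes. SMTNL2 had 165, 127 and 198 in the tumours of hens 4, LB14 and LB11, against 93.0, 85.3 and 101 in Normal hens 36, LB3 and LB22. All 3 tumours were above all 3 Normal ovaries for SMTNL2, as they were for 6.88% of all probe sets.

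Among 33 measured of 40 listed genes for adhesion and dense plaques, the sites where smooth muscle filaments end at the membrane, 0 were called. Their mean was -0.27 in hen 4, 0.16 in LB14 and 0.38 in LB11, the same order of the tumours as for the contractile genes over a smaller range. PDLIM4, a PDZ and LIM domain protein on actin, had 1720, 3134 and 1338 in the tumours of hens 4, LB14 and LB11, against 772, 674 and 747 in Normal hens 36, LB3 and LB22. Its groups did not overlap, and its difference of 1.39 (SE 0.29) did not pass the threshold (limma adjusted p = 0.207). CSRP1, a LIM protein of smooth muscle, had 3288, 3634 and 5797 in the tumours, against 2674, 1758 and 2835 in the Normal ovaries, a difference of 0.79 (limma adjusted p = 0.452), with all tumours again above all Normal ovaries. Such separation held for 6.88% of all probe sets, and PDLIM4 and CSRP1 were named for their large differences. FLNA, the crosslinker filamin A, differed by -0.64 (limma adjusted p = 0.694).

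The regulators of smooth muscle genes, led by SRF and its partner myocardin (MYOCD), gave 0 calls among 28 measured of 32 listed. SRF had 535, 513 and 712 in the tumours of hens 4, LB14 and LB11, against 816, 625 and 730 in Normal hens 36, LB3 and LB22 (difference -0.30, limma adjusted p = 0.794). MYOCD had 140, 186 and 261 in the tumours, against 215, 143 and 132 in the Normal ovaries (difference 0.23, limma adjusted p = 0.912). Both genes, chosen after their values were seen, overlapped between the groups and had their highest tumour signal in LB11. The largest differences of this list were those of TEAD1, HEY1 and FHL1. TEAD1, a DNA-binding factor of the Hippo pathway, was above background in 2 of 3 tumours and 0 of 3 Normal ovaries (limma adjusted p = 0.207). No fold is given for it, since not all tumours were above background. HEY1, a repressor that Notch switches on, had 1748, 967 and 1160 in the tumours, against 4081, 1872 and 3569 in the Normal ovaries, a difference of -1.26 (limma adjusted p = 0.309). FHL1, a LIM protein of muscle, differed by 1.16 (limma adjusted p = 0.459).

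For calcium handling and excitation, the step before MYLK, 0 of 39 measured genes of 45 listed were called. The list mean was -0.34 in hen 4, 0.05 in LB14 and 0.15 in LB11. KCNMB1, the smooth muscle subunit of the large calcium-activated potassium channel and chosen after its values were seen, had 546, 2376 and 3508 in the tumours of hens 4, LB14 and LB11, against 1116, 1086 and 1632 in Normal hens 36, LB3 and LB22 (limma adjusted p = 0.914). Hen 4 was below every Normal ovary for KCNMB1 and the other tumours were above every one. ABCC9, the sulphonylurea receptor of the potassium channel of vascular muscle and pericytes, had 249, 404 and 486 in the tumours, against 903, 709 and 725 in the Normal ovaries. All tumours were below all Normal ovaries for ABCC9, as they were for 6.4% of all probe sets. Its difference of -1.05 (SE 0.27) did not pass the threshold (limma adjusted p = 0.309). The vasopressin-type receptor AVPR1A differed by -1.32 (limma adjusted p = 0.683) and was above background in 1 of 3 tumours and in 3 of 3 Normal ovaries, and the prostaglandin F receptor PTGFR by -0.93 (limma adjusted p = 0.632).

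Striated muscle was checked because it shares desmin, tropomyosin and leiomodins with smooth muscle. Of its 41 measured markers, 0 were called, and 16 were above the background limit on all 6 arrays. Another 9 were at or below the limit on all 6. Among these 9 were the troponin subunits TNNI1, TNNI2 and TNNC2, the myosin heavy chain MYH7 and the myogenic factors MYF5 and MYF6. They were picked as examples after their values were seen. In LB11, 15 of the 41 had their highest signal of the 6 ovaries, where 19.7% of all genes did. The troponin subunit TNNC1, also picked afterwards, had a Pearson correlation of 0.936 with the mean profile of the contractile genes over 6 arrays. For the striated genes MYL2 and MB it was -0.18 and -0.30. The summed signal of the list was 4242, 4691 and 9117 in the tumours of hens 4, LB14 and LB11, against 5138 to 5997 in the Normal ovaries. ACTA1, the skeletal alpha actin, had 407, 777 and 4186 in the tumours of hens 4, LB14 and LB11, against 1038, 464 and 963 in Normal hens 36, LB3 and LB22, and so made up much of the higher sum in LB11. Whether its probe set reads the other actins was not tested. The largest differences of the list were those of MYL3 (-2.64, limma adjusted p = 0.394; above background in 1 of 3 tumours), MYL2 (-1.47, limma adjusted p = 0.299) and MYH1C (1.40, limma adjusted p = 0.464; above background in 1 of 3 Normal ovaries), which are light and heavy chains of striated muscle myosin.

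Markers of other cells of the ovarian wall were also low in hen 4. Of 12 measured markers of mural cells and pericytes, the cells that wrap vessels, 0 were called, and their mean was -0.71 in hen 4, 0.11 in LB14 and 0.18 in LB11. Of the 29 fibroblast matrix genes, 0 were called, and hen 4 had the lowest signal of the 6 ovaries for 23 of them. Their mean was -1.15 in hen 4, -0.11 in LB14 and -0.19 in LB11, and their summed signal was 70506 in hen 4, 159611 in LB14 and 163617 in LB11, against 144804 to 205423 in the Normal ovaries. PDGFRB, a receptor of pericytes and fibroblasts, had 587, 2136 and 1990 in the tumours of hens 4, LB14 and LB11, against 2316, 2247 and 2214 in Normal hens 36, LB3 and LB22 (difference -0.73, limma adjusted p = 0.724). Hen 4 was thus low for connective tissue and mural genes as well as for ACTG2, DES and MYLK, while LB11 was near or below the Normal mean for fibroblast matrix and above it for the contractile genes. Of the other genes with the largest differences in these lists, FOXC2, a transcription factor of mesenchyme, differed by 0.72 (limma adjusted p = 0.679) and the matrix genes VCAN, OGN and COL14A1 by -1.69, -1.14 and -1.06 (limma adjusted p 0.320, 0.660 and 0.682).

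Epithelial markers had list means of 1.87 in hen 4, 2.23 in LB14 and 1.17 in LB11, and 4 of 18 measured genes were called higher: the cadherin CDH1 (5.44, limma adjusted p = 0.00554), the claudins CLDN10 (5.29, limma adjusted p = 0.00198) and CLDN3 (at least 49.4-fold, limma adjusted p = 0.0204) and the keratin KRT40 (5.57, limma adjusted p = 0.0102; above background in 2 of 3 Normal ovaries). Of 10 measured egg white genes of the oviduct, 5 were called higher. They were OVAL (at least 386-fold), SPINK7 (at least 282-fold), OVALY (7.46; above background in 1 of 3 Normal ovaries), TF (5.03) and LYZ (4.96), with limma adjusted p between 6.61e-05 and 0.0226. LB11, the tumour with the highest contractile signals, had the lowest mean of the epithelial list.

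Of 20 measured genes of steroid-making follicle cells, 0 were called, and their mean was -1.53 in hen 4, -1.48 in LB14 and -1.13 in LB11. STAR (-3.44), CYP17A1 (-3.29) and HSD3B1 (-3.25) had the largest differences (limma adjusted p 0.0935, 0.186 and 0.0935). STAR brings in cholesterol, and CYP17A1 and HSD3B1 convert steroids made from it. Of the 20 follicle genes, 19 were above background on all 6 arrays. So were 28 of the 29 fibroblast matrix genes and 32 of the 33 adhesion genes, so this count cannot check the labelled tissue. Endothelial markers (20 genes, 0 called) had means of -0.51 in hen 4, -0.15 in LB14 and 0.15 in LB11, with the largest differences in SOX17 (1.61), EMCN (1.36) and CD34 (-1.02), at limma adjusted p between 0.383 and 0.686. The summed signal of the endothelial list had the reverse order, 20018.5 in hen 4, 18374.7 in LB14 and 14898.8 in LB11. In the Normal ovaries the sum was 13079.8 to 15451.2. A sum is led by the brightest genes, and how far single genes set its order was not tested. By gene, hen 4 was the lowest of the 6 ovaries for 12 of the 20, where it was so for 22.0% of all genes. LB11 was the highest for 7, where it was so for 19.7%. The part that the share of each cell type plays in the levels of the contractile genes was not tested.

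**Figure D4:**
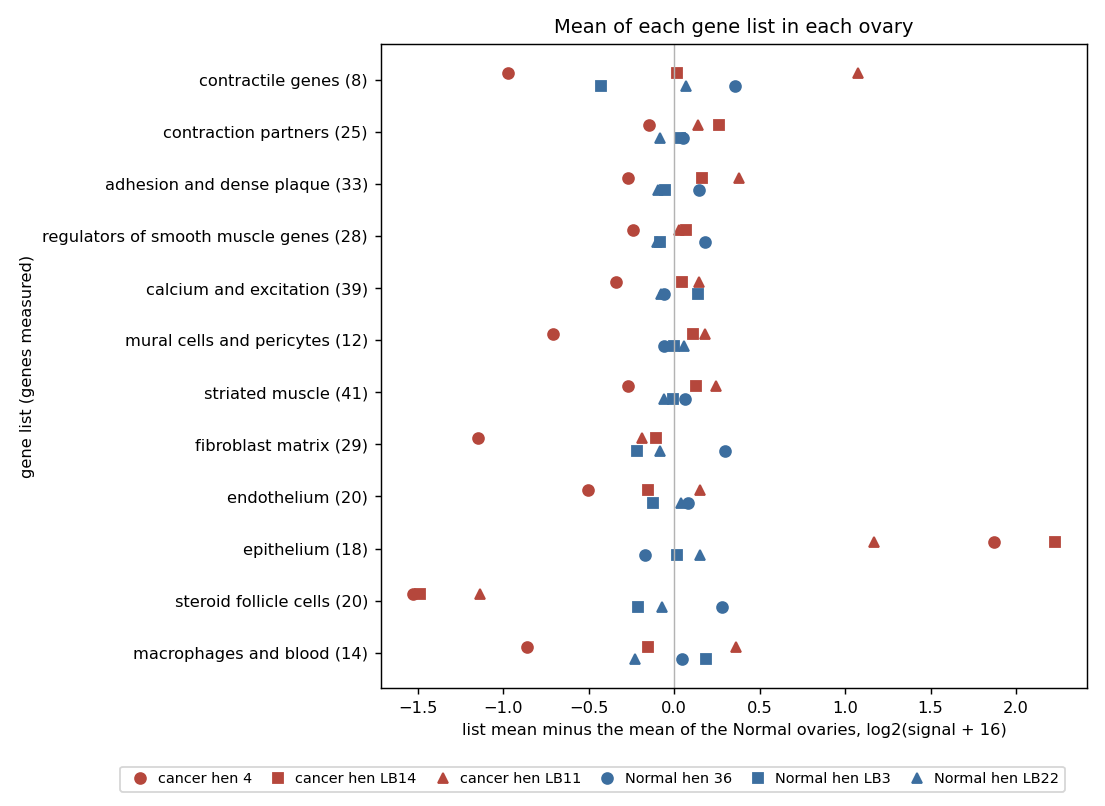
Mean of each gene list in each ovary on the log2(signal + 16) scale, minus the mean of the 3 Normal ovaries, with the number of genes measured in brackets. Tumours are drawn in red above the Normal ovaries in blue. The contractile genes have the widest gap between LB11 (1.07) and hen 4 (-0.97) of the lists shown, the fibroblast matrix is low in hen 4 (-1.15), and the epithelium is high in all tumours. The mean of the contractile genes includes ACTA2, whose signal was below background in hen 4 and in Normal hen LB3. The egg white list is not drawn.

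The genes most like the contractile genes over the 6 ovaries were looked for among 2172 genes with a signal at or above the 40th percentile and an SD of at least 0.5. The highest Pearson correlations with the mean profile of the contractile genes, over 6 arrays and without a test, were those of ADIPOQ (0.997), RHAG (0.982), SLC4A1 (0.964), SRCIN1 (0.963), PI16 (0.960), CRTAC1 (0.960), ACTA1 (0.951) and OLFML3 (0.950). ADIPOQ is adiponectin, the hormone of fat cells, RHAG and SLC4A1 are proteins of the red cell membrane, and PI16 is known as a marker of adventitial fibroblasts. All 8 had their highest signal of the 6 ovaries in LB11 and their lowest in hen 4. They were picked for likeness to a profile with the same extremes, so this follows largely from the choice. With LB11 left out, 1 of the 8 was still among the 8 most alike. The correlations of the 8 then ran from 0.909 (PI16) to 0.994 (ADIPOQ). With Normal hens LB3 or 36 or tumour 4 left out, 3, 4 and 3 were still among them. With tumour LB14 or Normal hen LB22 left out, 5 and 5 were. The names thus depend on single ovaries. They also depend on scaling: with each contractile gene scaled to unit SD, 4 of the 8 remained. The unscaled mean gives genes of wide spread, such as ACTG2, more weight. It also includes ACTA2, whose signal was below background in hen 4 and in Normal hen LB3. The 6 points share their RNA and array with the contractile genes, and with 6 points and 2172 candidates high values occur readily.

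Red cell genes can reflect the blood in a sample. HBA1, an alpha globin, had 3882, 11224 and 20889 in the tumours of hens 4, LB14 and LB11, against 16472, 13765 and 17396 in Normal hens 36, LB3 and LB22 (limma adjusted p = 0.796). SLC4A1, the anion exchanger of red cells, had 56.1, 185 and 568 in the tumours, against 248, 173 and 260 in the Normal ovaries (limma adjusted p = 0.964). Both were lowest in hen 4 and highest in LB11, as ACTG2 and DES were. For SLC4A1 this adds nothing, since it was picked above for its likeness to the contractile genes. Of the 14 measured markers of macrophages and blood, 0 were called, and their mean was -0.86 in hen 4, -0.16 in LB14 and 0.36 in LB11. The globin HBBR (-1.08, limma adjusted p = 0.626; above background in 1 of 3 tumours), HBA1 (-0.70) and the complement gene C1QA (-0.62, limma adjusted p = 0.749) had the largest differences. The share of blood, vessels or ovarian wall in each piece of tissue is not given by the labels, and its part in the spread of the contractile genes was not tested.

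**Figure D5:**
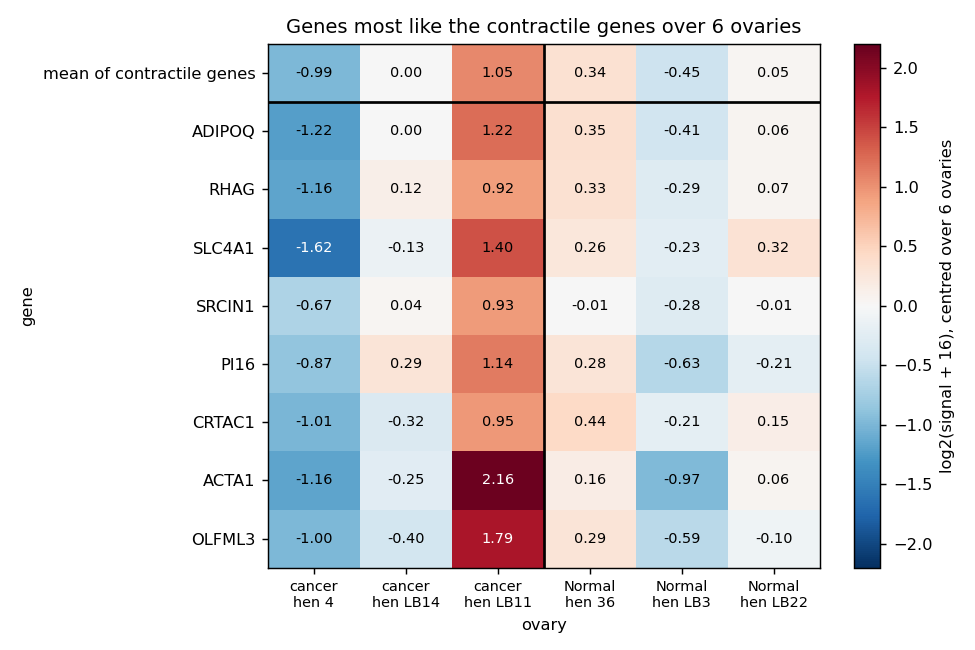
Heatmap of log2(signal + 16), centred on the mean of the 6 ovaries, for the mean of the 8 contractile genes (top row) and the 8 genes most like it, with cancer hens left of Normal hens. Each row is lowest in hen 4 and highest in LB11, at -0.99 and 1.05 in the top row. The top row includes ACTA2, whose signal was below background in hen 4 and in Normal hen LB3.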

How the data were processed

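Biotin-labelled RNA from 6 ovaries was read on Affymetrix arrays of 1 colour, per the labels. For 38535 probe sets the authors deposited a linear signal intensity from the software GCOS (named in the submitters' processing notes, with no version or settings in the sources used here). Each array's mean after trimming 2% at each end was 500.1, so the arrays had been scaled and were not normalized again. The 75th percentiles lay between 515 and 541, and 68.2% to 76.1% of probe sets were above the array's background limit. Tumour 4 had the highest value of both, and its background limit of 25.5 was the lowest, the next being 38.6 in Normal hen LB3. This limit was the 95th percentile over 59 control probe sets, picked by name, whose target RNA was assumed to be left out. No 2 arrays were identical. The log2 ratios of 3' to 5' control probe sets, a measure of RNA quality, lay between -0.12 and 0.23. The number of arrays limits the precision. The p-values and intervals rest on the variance between hens, which limma moderates toward that of probe sets with like signal. For probe sets of wide spread, such as those of ACTG2 and DES, the SE is therefore smaller than their own spread alone would give.

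Differences were computed with limma 3.58.1 in R 4.3.3 (lmFit, eBayes with a trend, two-sided) on log2(signal + 16) of all 38439 probe sets other than 96 controls, with no filter, and adjusted over all of them by Benjamini-Hochberg (threshold 0.05). This scale understates changes of dim genes. Tables were summarised with pandas 2.3.3. The step was tested on simulated data with the same spread in both groups. That test thus does not cover a wider spread among tumours. A gene is its probe set with the highest mean signal. Gene names are those of the platform's annotation, and all 8 gene IDs are in the RefSeq table of GRCg7b. Genes of the 12 other lists were matched by symbol or gene ID only. A title prefix (LB) of unstated meaning was tried as a block, and no array date or batch is given in the sources used here.

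The members and lists were chosen with earlier results of these data known. The text names all members, in each list the genes called (at most 5) and otherwise the 3 with the largest difference, and the 8 most alike genes, and says where another gene was chosen after its values were seen. Alternatives were pseudocounts of 1 and 64, a 40th or 60th percentile filter, a common 75th percentile, quantile normalization, eBayes with robust fitting, eBayes with no trend, array weights, blocking on the prefix, only the LB hens, averaging the probe sets of a gene, a threshold of 0.1 and leaving out each hen. Promoter motifs were not searched here.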

Additional observations from a re-analysis of the deposited data

How the results depend on the processing

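The counts of 0 called probe sets in either direction held in the 18 alternatives run for them, and over the 19 run for single genes the lowest limma adjusted p of a contractile gene was 0.230 (MYH11, with 1 hen left out). Of 150 differences of single genes, 139 kept their sign and 11 changed it, all of them after leaving out hens. Robust fitting, no trend, the filters, the prefix block and the threshold of 0.1 left each difference as it was. Averaging probe sets did so for the 4 genes with 1 probe set. Signs could not change in those settings, so the 139 overstate how stable they are. With the LB hens alone, the difference was 0.56 for ACTA2, 0.084 for DES, 0.59 for MYLK and 0.22 for TPM1, the median difference of the 8 genes was 0.58, and their median SD among tumours was 0.43. Leaving out each hen in turn gave -1.17 to 0.042 for ACTA2, -1.40 to 0.99 for ACTG2, -0.044 to 0.36 for CALD1, -1.31 to 0.26 for DES, -0.79 to 0.43 for MYLK and -0.25 to 0.12 for TPM1. MYH11 (0.49 to 1.23) and TAGLN (0.26 to 0.97) stayed positive. With all hens, the median SD among tumours, 0.96 as run, was 0.87 with quantile normalization and 0.97 with a common 75th percentile. It was 1.06 with a pseudocount of 1, 0.76 with 64 and 0.82 with probe sets averaged. No paired analysis was possible because the groups share no hen numbers. Without hen LB14 the median difference of the regulators of smooth muscle genes was -0.25, and without LB11 that of striated muscle was -0.02; the cause was not tested. The shift of the median over all genes lay between -0.03 and 0.02. ACTA2, the second DES and the fourth MYLK probe sets are limited by their signal over background.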
